A study of Mus musculus with 25 samples.

Results

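The genes described here are the 10 that carry the light response of cones in the mouse retina, chosen by symbol: Opn1sw, Opn1mw, Gnat2, Gnb3, Gngt2, Pde6c, Pde6h, Cnga3, Cngb3 and Arr3. All 10 were found among the 18440 genes that every table lists, and all 10 passed the filter on low values. The measurement was bulk RNA sequencing of whole retina in 25 libraries, 5 in each of 5 groups, and the study asked how small molecules that act on the stress sensor ATF6 affect the retina. All mice were wild-type C57BL/6J animals injected at postnatal day 30 into the vitreous of both eyes, 1 µL per eye. The groups were tunicamycin at 10 µM, Ceapin-A7 at 10 µM, a vehicle set called vehicle set 2 here, AA147 at 10 µM, and a vehicle set called vehicle set 1. The compounds were given in saline with 0.05 to 0.1% dimethyl sulfoxide, and so was the vehicle according to the protocol, although PBS is what both vehicle sets carry as their treatment. The columns of the 3 compounds carry a time of 24 h, whereas those of the vehicle sets carry none and the series lists 24 h, 3 days and 7 days, so a difference in time cannot be told apart from a difference in treatment. Whether the 5 libraries of each group are 5 mice is not stated, so the p-values reflect library-to-library spread, and that spread could be technical.

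In a cone, light switches an opsin into its active form, the opsin activates the trimeric G protein transducin, and transducin lifts the inhibitory subunits off phosphodiesterase 6. The enzyme then lowers cyclic GMP and the cyclic nucleotide-gated channel of the outer segment closes. Arrestin caps the spent opsin. ATF6 is a membrane protein of the endoplasmic reticulum that is cut under protein-folding stress and then drives chaperone genes. In people, inherited loss of ATF6 causes achromatopsia, a loss of cone function that also results from mutations in GNAT2, PDE6C, PDE6H, CNGA3 and CNGB3. Tunicamycin blocks N-glycosylation and so provokes folding stress, Ceapin-A7 holds ATF6 back from activation, and AA147 activates it.

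Values are FPKM, fragments per kilobase of transcript, scaled by the mapped fragments of the library, as deposited by the authors. Depth, estimated from the smallest steps between FPKM values, ran from 15.3 M to 24.7 M fragments (median 23.4 M), and 12584 to 12871 genes reached 1 FPKM in a library. The tunicamycin, Ceapin-A7 and vehicle set 2 tables list the same 19102 genes, and the AA147 and vehicle set 1 tables another 18676, so each compound was set against the vehicle set that shares its gene list. The tunicamycin and Ceapin-A7 comparisons share the vehicle set 2 libraries. A difference was called when the Benjamini-Hochberg adjusted p of limma, over all 13117 tested genes, was under 0.05. Changes are differences of log2(FPKM + 1), which understate the change of low genes such as Cnga3 and Cngb3. Hspa5, the ER chaperone BiP and a target of ATF6, measured 1513, 494.7, 229.0, 580.8 and 427.3 FPKM in the tunicamycin libraries, against 106.4 to 161.9 FPKM in vehicle set 2.

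Some libraries stood apart from the rest of their group. The summed FPKM of the 9 cone markers, which are the members without Gnb3, was 746.1 in tunicamycin library 1, against 1102 to 1232 in the other tunicamycin libraries, and 908.9 and 834.8 in libraries 4 and 5 of vehicle set 2, against 1055 to 1184 in its other libraries. The summed FPKM of 5 rod markers was low in the same libraries, at 5483 in tunicamycin library 1, against 6222 to 6994 in the other tunicamycin libraries, and 5597 and 5653 in vehicle set 2 libraries 4 and 5, against 7290 to 8270 in its other libraries. Lens markers summed to between 2.98 and 12110 FPKM over the 25 libraries, with the highest sum in tunicamycin library 1. The Y-linked gene Ddx3y was listed at 0 in libraries 1 to 4 of vehicle set 2 and in libraries 4 and 5 of both Ceapin-A7 and AA147, and lay between 9.84 and 17.52 FPKM in every other library, so the groups did not share 1 sex composition. The part these differences play in the results was not tested, and values without the 3 libraries are given where a result rests on them. Tunicamycin library 1 was also the library highest in Hspa5, so those values leave out the strongest Hspa5 response as well.

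All 10 genes were detected in all 25 libraries, over a wide range of levels. Pde6h averaged 324 FPKM and Gnb3 309.5 FPKM, followed by Opn1sw at 191.3, Gngt2 at 147.3, Arr3 at 143.6, Opn1mw at 141.2 and Gnat2 at 94.29 FPKM. Pde6c averaged 38.12 FPKM, and the channel genes Cngb3 and Cnga3 lay far lower at 5.036 and 4.851 FPKM. Each gene from Pde6h down to Gnat2 overlapped its neighbour in this order over the 25 libraries, and so did the channel genes, whereas the lowest Gnat2 value of 64.29 FPKM stayed above the highest Pde6c value of 48.87 FPKM. Pde6c in turn never came below 25.01 FPKM, and no channel value exceeded 6.97 FPKM. The order of the channel subunits differed between the table families, as Cnga3 averaged 6.188 and 6.342 FPKM in AA147 and vehicle set 1, where Cngb3 averaged 4.978 and 5.25 FPKM, but 4.06, 3.948 and 3.716 FPKM in tunicamycin, Ceapin-A7 and vehicle set 2, where Cngb3 averaged 4.998, 5.322 and 4.63 FPKM.

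**Figure D1:**
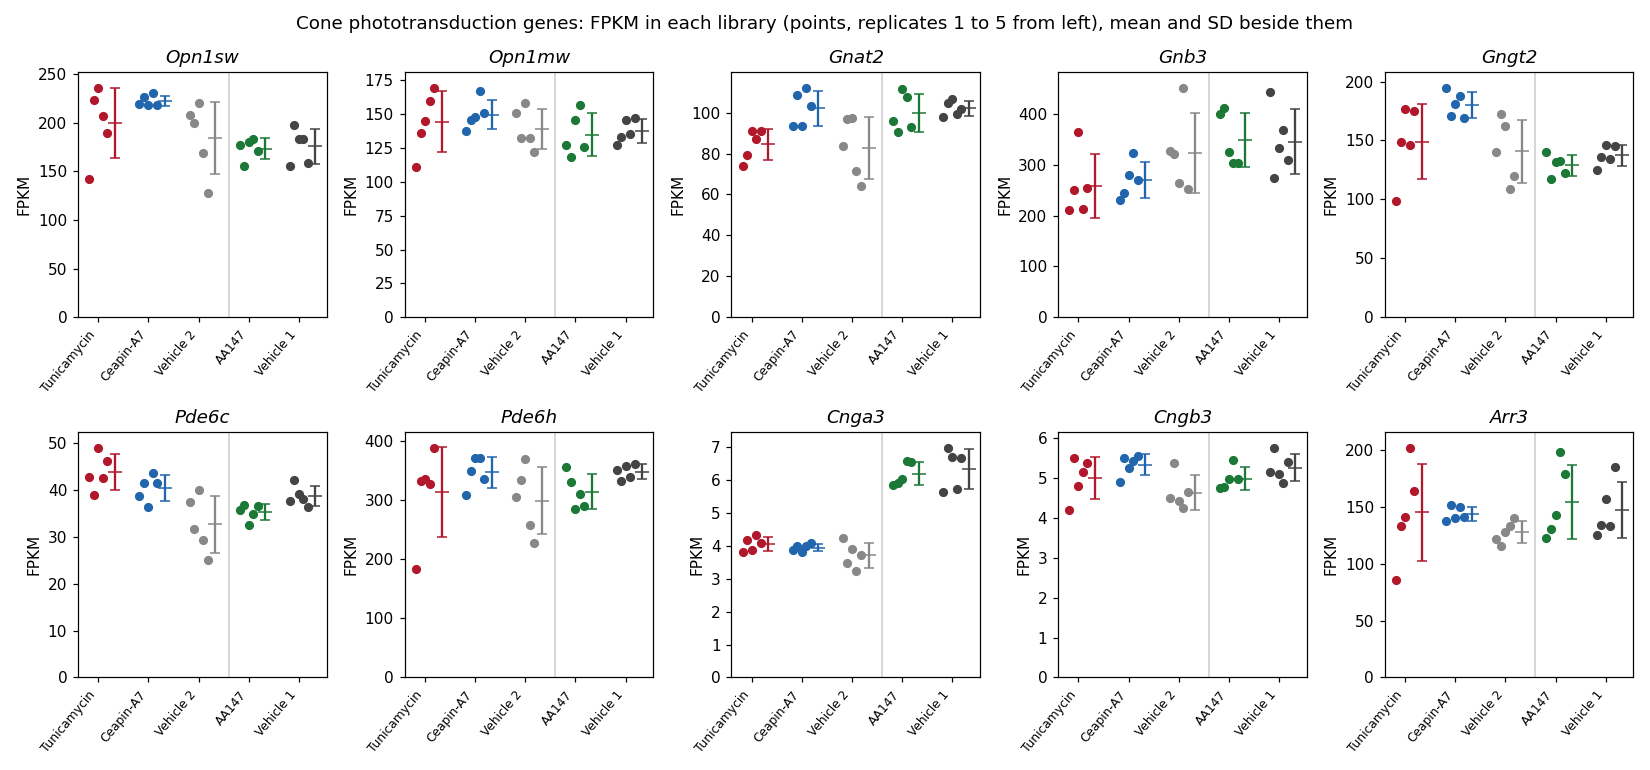
FPKM of each cone gene in each library (points, replicates 1 to 5 from left to right) with the group mean and SD beside them; the grey line separates the tables that list different genes. Pde6c in tunicamycin spans 38.96 to 48.87 FPKM against 25.01 to 39.89 FPKM in vehicle set 2, and Cnga3 spans 3.25 to 4.33 FPKM left of the line and 5.64 to 6.97 FPKM right of it.

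After tunicamycin, Pde6c was higher than in vehicle set 2, and the other 9 cone phototransduction genes did not pass the test. Pde6c encodes the catalytic subunit of cone phosphodiesterase 6. It measured 42.65, 38.96, 48.87, 42.42 and 46.11 FPKM in the tunicamycin libraries, against 37.35, 31.55, 39.89, 29.27 and 25.01 FPKM in vehicle set 2. The tunicamycin libraries were the higher ones except that library 2 lay just under vehicle library 3, so the groups overlapped by that pair alone. The log2 change was 0.43 ± 0.09 (SE, n = 5 and 5; 1.35-fold; 95% interval 0.25 to 0.61; limma adjusted p = 0.00346). This was 1 of 10 members called, a share near that of all tested genes, of which 8.7% were called, 773 of them (5.89%) higher and 368 (2.81%) lower. None of the members was separated completely between the groups, against 4.05% of all genes. Without the 3 libraries that stood apart, a choice made after seeing the data, the change was 0.28 (adjusted p = 0.0406). The call was lost when the fit held only these 2 groups (0.43, adjusted p = 0.135), and against vehicle set 1 the change was 0.17 (adjusted p = 0.0915). With the Y-linked level of each library as a covariate the change was 0.56 (adjusted p = 0.00133). Every tunicamycin library expressed Y-linked genes, and in vehicle set 2 only library 5, the lowest in Pde6c, did. Sex and treatment can thus hardly be told apart in this comparison. Ceapin-A7, set against the same vehicle libraries, gave a Pde6c difference of 0.31 ± 0.09 that did not pass (limma adjusted p = 0.304). Pde6c was itself lower in vehicle set 2 than in vehicle set 1, with a difference of −0.25 ± 0.09.

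The other subunit of the same enzyme did not pass the test. Pde6h, the inhibitory subunit of cone phosphodiesterase, measured 184.1, 331.8, 335.8, 326.9 and 387.5 FPKM after tunicamycin and 304.5, 333.9, 369.7, 258.2 and 227.6 FPKM in vehicle set 2. Tunicamycin library 1 was the lowest and library 5 the highest of these 10 values, and the groups overlapped widely. The change was 0.05 ± 0.14, with a 95% interval of −0.25 to 0.34 (adjusted p = 0.876).

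The opsins did not pass the test after tunicamycin. Opn1sw, the short-wavelength opsin, which in the mouse absorbs ultraviolet light, measured 142.6, 223.3, 236.0, 207.2 and 190.0 FPKM after tunicamycin, against 207.9, 199.4, 220.3, 168.6 and 127.5 FPKM in vehicle set 2. Tunicamycin library 1 and vehicle library 5 were the low ones. The change was 0.12 ± 0.12 (adjusted p = 0.596). Opn1mw, the medium-wavelength opsin, ranged over 111.1 to 169.5 FPKM after tunicamycin and 121.8 to 158.0 FPKM in vehicle set 2, a change of 0.05 ± 0.09 (adjusted p = 0.805). In the RefSeq annotation the Opn1sw gene overlaps Calu, an ER calcium-binding protein gene that rose after tunicamycin by 0.43 ± 0.09 (adjusted p = 0.00527). The labels give a stranded library but do not say whether the quantification used the strand. The length of the overlap was not determined, and whether reads of the pair were mixed was not tested. Gngt2 likewise overlaps Abi3, a low gene averaging 2.16 FPKM.

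Among the transducin subunits, Gnb3 moved furthest, without passing the test. Gnb3 encodes the beta subunit of cone transducin and is also used by ON bipolar cells. It measured 210.6, 250.2, 365.7, 212.6 and 253.9 FPKM after tunicamycin and 326.6, 321.2, 264.1, 451.8 and 253.4 FPKM in vehicle set 2. Apart from library 3, every tunicamycin library lay below vehicle libraries 1 to 4. Of these, only tunicamycin library 5 lay above vehicle library 5, at 253.9 against 253.4 FPKM. The change was −0.32 ± 0.16 (adjusted p = 0.214), and without tunicamycin library 3 it was −0.45 and passed (adjusted p = 0.0445). It was −0.19 without vehicle set 2 library 4 (adjusted p = 0.473) and −0.19 without the 3 libraries that stood apart (adjusted p = 0.606). Summed bipolar markers were 403.7 to 587.6 FPKM after tunicamycin and 523.9 to 653.5 FPKM in vehicle set 2, and 0 of 7 passed the test. Gnat2, the alpha subunit, ranged over 73.88 to 91.2 FPKM after tunicamycin and 64.29 to 97.48 FPKM in vehicle set 2, and Gngt2, the gamma subunit, over 98.32 to 177.1 and 109.0 to 172.7 FPKM. Their changes were 0.05 ± 0.09 and 0.07 ± 0.12 (adjusted p = 0.81 and 0.762).

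The channel and arrestin genes did not pass either. Cnga3, the principal channel subunit, changed by 0.10 ± 0.06 (adjusted p = 0.266), and Cngb3, the modulatory subunit, by 0.09 ± 0.06 (adjusted p = 0.37). Arr3, cone arrestin, measured 85.6, 133.3, 141.1, 201.5 and 164.1 FPKM after tunicamycin and 122.1, 115.5, 128.1, 132.9 and 140.2 FPKM in vehicle set 2. Tunicamycin held both the lowest and the highest of these values, with a coefficient of variation of 29.3% against 7.47% in vehicle set 2. The change was 0.13 ± 0.16 (adjusted p = 0.653). Over the 10 members 9 changes were positive and 1 negative, with a median of 0.08, beside 0.01 over all tested genes. Without vehicle set 2 libraries 4 and 5, the changes of Opn1sw, Opn1mw, Gnat2, Gngt2 and Pde6h were negative. In bulk retina fewer cells of a type and less RNA per cell cannot be told apart.

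**Figure D2:**
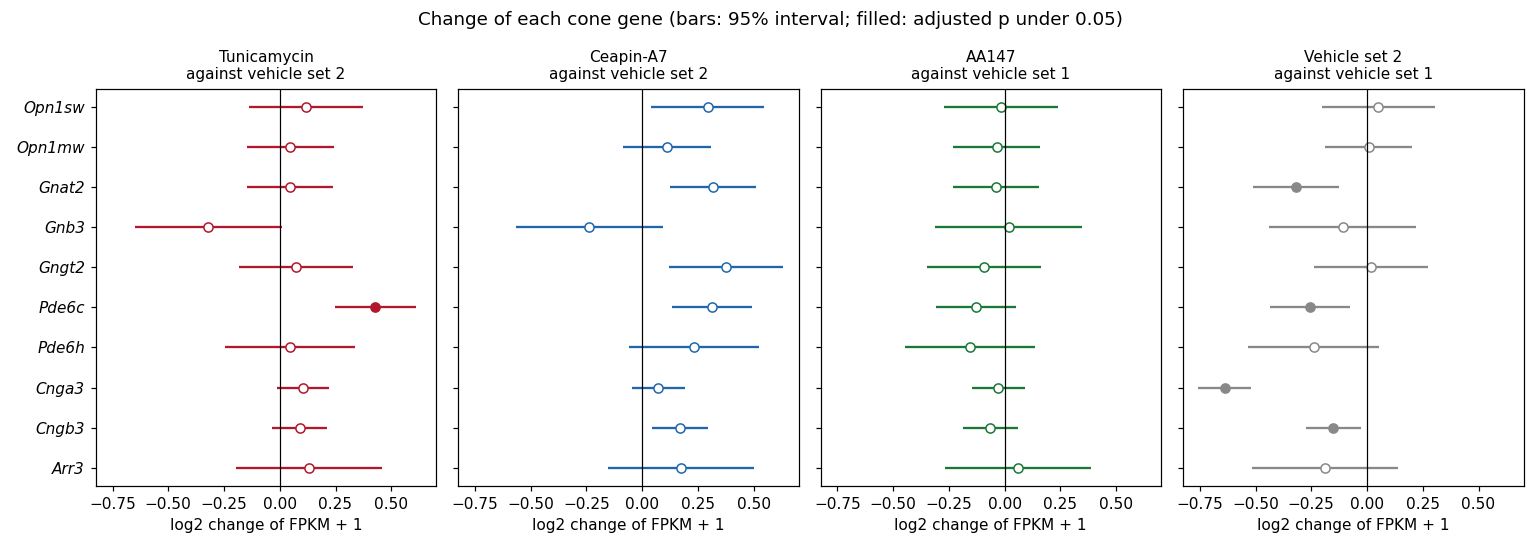
Difference of log2(FPKM + 1) for each cone gene in 4 comparisons (points) with its 95% interval from limma (bars); filled points have an adjusted p under 0.05. Pde6c at 0.43 is filled after tunicamycin, none is filled after Ceapin-A7 or AA147, and Gnat2, Pde6c, Cnga3 and Cngb3 are filled between the vehicle sets.

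After Ceapin-A7, 0 of 10 members passed limma's adjusted threshold, and 0% of all 13117 tested genes did. None of the members was separated completely from vehicle set 2, where 1.45% of all genes were. At an unadjusted p under 0.05, 5 members and 1615 genes (12.31%) were counted, all 5 members being higher after Ceapin-A7. Pde6c measured 38.71, 41.5, 36.34, 43.56 and 41.49 FPKM after Ceapin-A7 against the vehicle set 2 values given above, a difference of 0.31 ± 0.09 (adjusted p = 0.304). Vehicle libraries 1 and 3 lay inside the Ceapin-A7 range, and libraries 2, 4 and 5 below it. Gngt2 measured 194.6, 170.4, 180.8, 187.8 and 169.1 FPKM after Ceapin-A7, against 140.4, 172.7, 162.0, 109.0 and 120.1 FPKM in vehicle set 2. Only vehicle library 2 reached into the Ceapin-A7 range. The difference was 0.38 ± 0.12 (adjusted p = 0.304).

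Gnat2 measured 93.57, 108.7, 93.52, 112.1 and 103.3 FPKM after Ceapin-A7, against 83.6, 96.96, 97.48, 71.34 and 64.29 FPKM in vehicle set 2, and vehicle libraries 2 and 3 lay among the Ceapin-A7 values (0.32 ± 0.09, adjusted p = 0.304). The remaining pair was Opn1sw, with a difference of 0.29 ± 0.12 (adjusted p = 0.354), and Cngb3, with 0.17 ± 0.06 (adjusted p = 0.305). Opn1sw was narrowly spread after Ceapin-A7, at 218.2 to 230.6 FPKM, and 1 vehicle library, at 220.3 FPKM, fell within that range. These differences were smaller without vehicle libraries 4 and 5, at 0.19 for Gngt2, 0.15 for Pde6c, 0.14 for Gnat2, 0.14 for Cngb3 and 0.09 for Opn1sw (adjusted p = 0.9995 for each). Without vehicle library 5 alone the Opn1sw difference was 0.17. Gnb3 was the 1 member with a negative difference, −0.24 ± 0.16 (adjusted p = 0.552). The median difference of the members was 0.20, beside −0.0004 over all genes, and that of 9 rod counterparts was 0.19.

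After AA147, 0 of 10 members and 0% of all tested genes passed limma's adjusted threshold, and 0 members and 246 genes (1.875%) had an unadjusted p under 0.05. Complete separation was found for 0 members and 0.656% of all genes. The members' changes ran from −0.15 to 0.06 with a median of −0.04. Pde6h lay at the lower end, with 355.2, 330.3, 284.1, 309.3 and 289.1 FPKM after AA147 against 350.1, 332.7, 358.1, 338.4 and 360.3 FPKM in vehicle set 1. AA147 libraries 2 to 5 were below every vehicle library, and library 1 lay among them. The change was −0.15 ± 0.14, with an interval of −0.45 to 0.14 (adjusted p = 0.9998). Pde6c measured 35.59, 36.74, 32.43, 34.88 and 36.45 FPKM after AA147 and 37.64, 42.14, 39.05, 37.96 and 36.35 FPKM in vehicle set 1. The vehicle libraries were mostly the higher ones, and vehicle library 5 lay below AA147 libraries 2 and 5. The change was −0.13 ± 0.09 (adjusted p = 0.9998). For the opsins the intervals were −0.27 to 0.24 for Opn1sw and −0.23 to 0.16 for Opn1mw. Arr3 spread from 122.4 to 198.2 FPKM after AA147 and from 125.2 to 185.3 FPKM in vehicle set 1.

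The activator and the inhibitor were compared directly as the AA147 change minus the Ceapin-A7 change, each against its own vehicle set. In limma 0 of 10 members and 0% of all genes passed, and 4 members and 882 genes (6.724%) had an unadjusted p under 0.05. The 4 were Pde6c at −0.44 ± 0.12, Gngt2 at −0.47 ± 0.18, Gnat2 at −0.35 ± 0.13 and Cngb3 at −0.23 ± 0.08, each with an adjusted p of 0.726. Each of them had a positive difference after Ceapin-A7 and a negative one after AA147. Without vehicle set 2 libraries 4 and 5 the values were −0.28 for Pde6c, −0.28 for Gngt2, −0.18 for Gnat2 and −0.20 for Cngb3. The opsins gave −0.31 ± 0.17 for Opn1sw and −0.15 ± 0.13 for Opn1mw, and Gnb3 was the 1 positive value, 0.26 ± 0.23. The median of the members was −0.27, beside 0.01 over all genes. That of 9 rod counterparts was −0.23, so the negative values were not particular to cone genes.

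The vehicle sets differed across the transcriptome, and the share of cone genes called was near that of all genes. In vehicle set 2 relative to vehicle set 1, 4 of 10 members were called, all lower, where 46.8% of all tested genes were called, 26.3% of all genes being higher and 20.5% lower. Cnga3 had the lowest p of the members. It measured 4.23, 3.48, 3.9, 3.25 and 3.72 FPKM in vehicle set 2, against 5.64, 6.97, 6.69, 5.73 and 6.68 FPKM in vehicle set 1, without overlap. The difference was −0.64 ± 0.06 (adjusted p = 3.3e-09). Tunicamycin and Ceapin-A7 libraries sat with vehicle set 2, at 3.81 to 4.33 and 3.8 to 4.08 FPKM, and AA147 libraries with vehicle set 1, at 5.85 to 6.57 FPKM. The level of Cnga3 thus followed the table family, and the compound columns of both families carry 24 h. The vehicle columns carry no time, and processing and animals cannot be told apart there. Every vehicle set 1 library expressed Y-linked genes, and in vehicle set 2 only library 5 did. Sex and vehicle set can thus hardly be told apart for any gene called between these sets.

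Gnat2 was also lower in vehicle set 2, with a difference of −0.32 ± 0.09 (adjusted p = 0.00696), and its values of 64.29 to 97.48 FPKM did not overlap the 97.79 to 106.8 FPKM of vehicle set 1. Complete separation was found for these 2 members and for 33.4% of all tested genes. Pde6c differed by −0.25 ± 0.09 (adjusted p = 0.0189) and Cngb3 by −0.15 ± 0.06 (adjusted p = 0.0393). Of 21 fits with other settings or libraries left out, the Cngb3 call was lost in 11 and the Pde6c call in 7. The Gnat2 call was lost in 2 and that of Cnga3 in 0. Without the 3 libraries that stood apart only Cnga3 of these was still called lower (−0.59), Gnat2 was at −0.14 (adjusted p = 0.126), Pde6c at −0.09 and Cngb3 at −0.12, and Opn1sw and Gngt2 were called higher in vehicle set 2 by 0.25 and 0.20.

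Cone genes were also read against the rod gene with the same role in the same library, as a percentage of FPKM, without a test because the pattern was seen in the values. Pde6c as a share of the rod catalytic subunit Pde6b was 6.77%, 5.89%, 7.27%, 6.49% and 6.82% in the tunicamycin libraries, against 5.54%, 4.26%, 4.89%, 5.69% and 4.48% in vehicle set 2. The lowest tunicamycin share, 5.89%, lay above the highest share of any other group, 5.77% in Ceapin-A7. Pde6c was not set against Pde6a, the other rod catalytic subunit. How often other gene ratios separate in this way was not counted. Pde6b itself measured 630.4 to 675.8 FPKM after tunicamycin and 514.4 to 816.5 FPKM in vehicle set 2, with a change of 0.02 ± 0.08 (adjusted p = 0.929). Vehicle libraries 4 and 5, which were low in Pde6c, were also the lowest in Pde6b.

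The other ratios overlapped between tunicamycin and vehicle set 2. Cngb3 was 1.60% to 1.88% of Cngb1 after tunicamycin and 1.24% to 1.67% in vehicle set 2. Arr3 ranged from 4.39% to 12.8% of the rod arrestin gene Sag after tunicamycin and 5.05% to 10.9% in vehicle set 2. Opn1sw exceeded Opn1mw in every library, at 112.1% to 163.6% of it after tunicamycin and 104.7% to 150.7% in vehicle set 2.

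**Figure D3:**
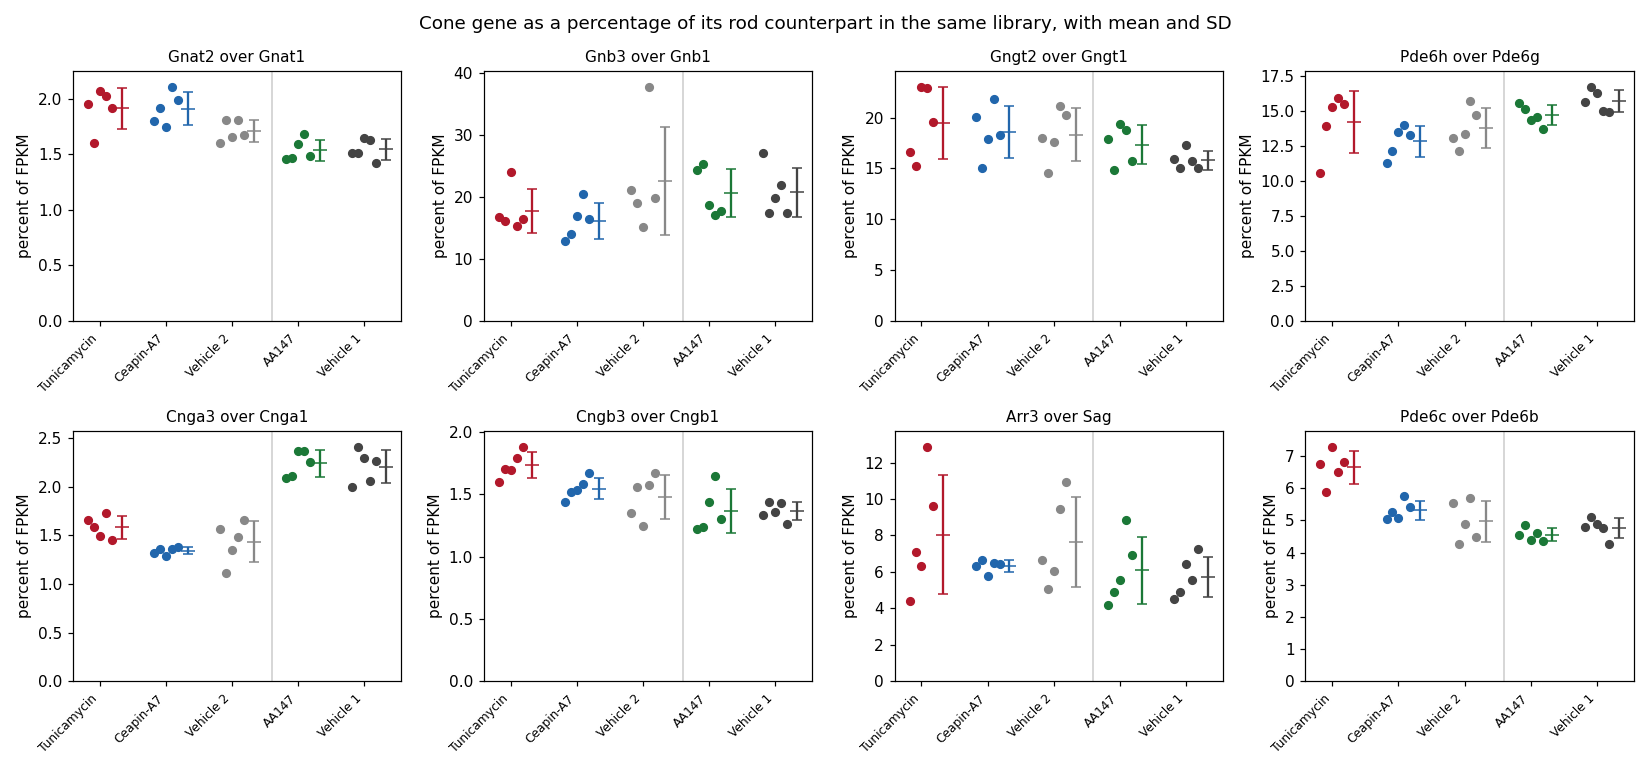
Cone gene as a percentage of the FPKM of its rod counterpart in the same library (points) with group mean and SD. All 5 tunicamycin points for Pde6c over Pde6b, 5.89% to 7.27%, lie above the points of the other 4 groups, whose highest is 5.77%, and Cnga3 over Cnga1 is 1.11% to 1.73% left of the grey line and 2.00% to 2.40% right of it.

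Most pairs of members were positively correlated within groups, and 2 libraries carried part of this. After each group's mean was subtracted, the 45 pairs of members had Pearson correlations over the 25 libraries between −0.60 and 0.831, with a median of 0.391, 14 above 0.5 and 7 below 0. Of the 7 negative pairs 5 held Gnb3, and the others were Pde6c with Cngb3 (−0.0365) and with Arr3 (−0.0577). These points share library depth, cell makeup and, within a group, any common handling. The highest was Gngt2 with Pde6h at 0.831, followed by Opn1sw with Gnat2 at 0.737. Without tunicamycin library 1 and vehicle set 2 library 5, the libraries farthest from the median, the same pairs gave 0.675 and 0.583, and over the 45 pairs the median was 0.306, with 6 above 0.5 and 11 below 0. The opsins Opn1sw and Opn1mw then correlated at 0.316, against 0.596 over all libraries. Opn1mw and Arr3, both on the X chromosome, correlated at 0.683. Gnb3 averaged −0.0488 with the 9 others and was lowest against Cnga3, at −0.60. In vehicle set 2 library 4, Gnb3 was the highest of its group at 451.8 FPKM, while Gnat2 at 71.34, Gngt2 at 109.0 and Pde6h at 258.2 FPKM were among the 2 lowest of theirs.

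**Figure D4:**
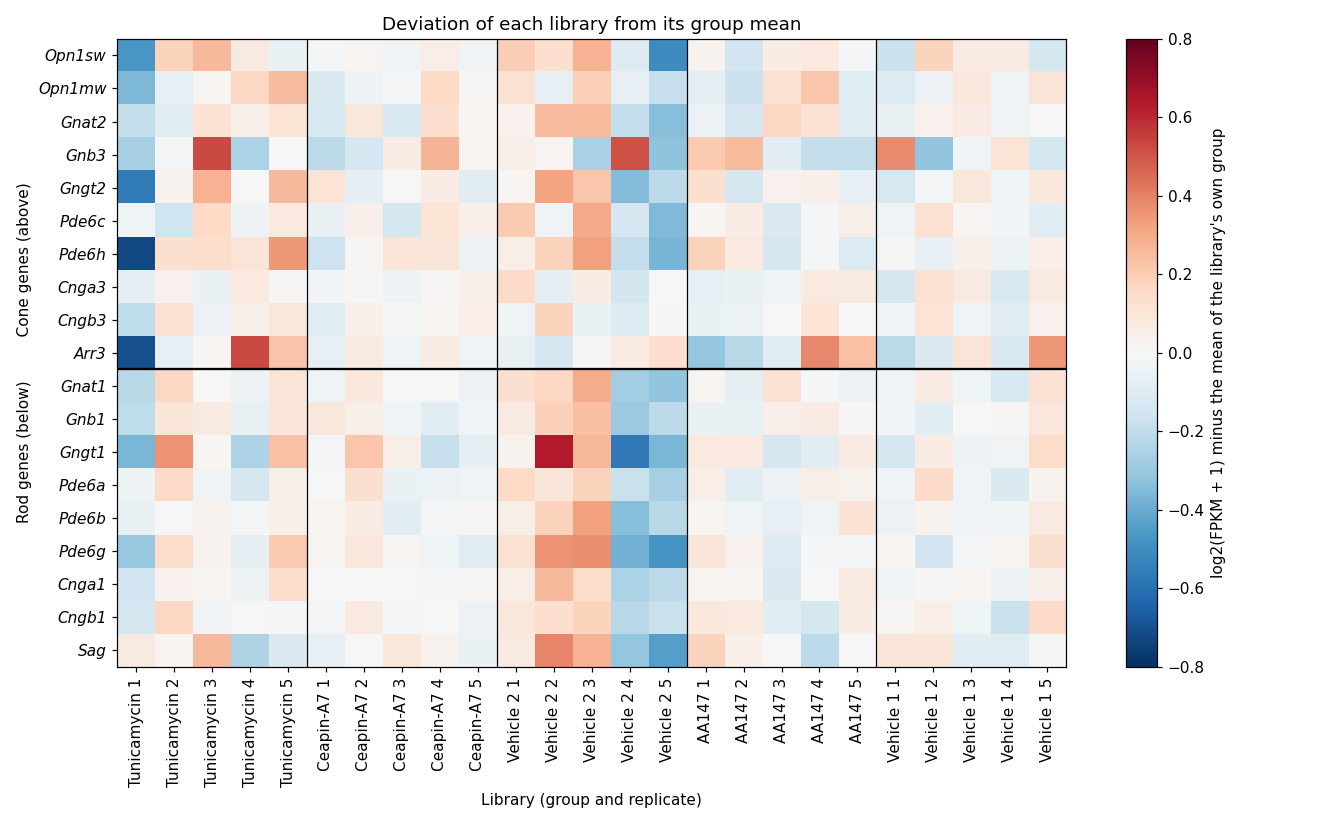
Difference of log2(FPKM + 1) from the mean of the library's own group (colour) for the 10 cone genes (upper rows) and 9 rod counterparts (lower rows) in each library (columns). Tunicamycin library 1 and vehicle set 2 library 5 hold mostly blue cells among the cone genes, and Gnb3 stands out in tunicamycin library 3, at 365.7 FPKM, and vehicle set 2 library 4, at 451.8 FPKM.

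The genes most like the members by this measure were sought among all tested genes as those with the highest correlation with the mean of the members, each scaled to unit SD. They were Prph2 (0.881), Atp6v0e2 (0.871), Ndrg3 (0.866), Chst3 (0.86), Ndrg2 (0.858), Ebpl (0.856), Rpa1 (0.853), Vtn (0.847), Lipg (0.844) and Glb1l2 (0.844). Prph2 encodes peripherin 2, a structural protein of rod and cone outer segment discs. Without the 2 libraries farthest from the median these correlations were 0.637 to 0.781. None of the 10 was a rod counterpart, although Gnat1 reached 0.75, and of 9 rod counterparts Sag was lowest at 0.317.

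Promoter sequence is given for the members that varied together most. Opn1sw, Opn1mw, Gnat2, Gngt2 and Pde6h had the highest mean correlation with the others, 0.486 to 0.515, and RefSeq promoter entries on GRCm38.p6 were at hand for 4 of them and for 6 members in all. The 250 bases before the annotated start are printed 5′ to 3′ on the gene's strand. Capitals mark TAAGCC or TAATCC, cores bound by photoreceptor homeodomain factors of the CRX and OTX2 kind, read on either strand (GGCTTA and GGATTA on the other). The windows are chr6:29380514-29380763 (minus strand) for Opn1sw, chrX:74127216-74127465 (plus) for Opn1mw, chr3:108092816-108093065 (plus) for Gnat2 and chr6:136954273-136954522 (plus) for Pde6h.
Opn1sw: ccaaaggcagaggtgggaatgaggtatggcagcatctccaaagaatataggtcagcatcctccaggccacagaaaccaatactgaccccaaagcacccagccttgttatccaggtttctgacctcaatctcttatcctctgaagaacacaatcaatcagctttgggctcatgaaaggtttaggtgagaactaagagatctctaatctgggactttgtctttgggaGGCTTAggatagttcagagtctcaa
Opn1mw: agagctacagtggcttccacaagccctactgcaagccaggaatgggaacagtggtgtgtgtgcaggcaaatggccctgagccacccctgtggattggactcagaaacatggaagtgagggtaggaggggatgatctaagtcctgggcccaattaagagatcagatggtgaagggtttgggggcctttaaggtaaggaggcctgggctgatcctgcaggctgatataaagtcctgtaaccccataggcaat
Gnat2: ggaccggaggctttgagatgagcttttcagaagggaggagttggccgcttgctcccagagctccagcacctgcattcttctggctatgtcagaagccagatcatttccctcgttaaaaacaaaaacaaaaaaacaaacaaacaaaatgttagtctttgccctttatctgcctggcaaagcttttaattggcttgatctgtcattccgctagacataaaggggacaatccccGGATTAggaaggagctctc
Pde6h: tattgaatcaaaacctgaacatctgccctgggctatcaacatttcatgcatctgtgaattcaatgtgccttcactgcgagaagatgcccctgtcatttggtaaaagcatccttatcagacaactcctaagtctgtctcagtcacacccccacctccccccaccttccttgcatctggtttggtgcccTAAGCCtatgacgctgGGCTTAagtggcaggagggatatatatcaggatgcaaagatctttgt

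TAAGCC was present once in the Opn1sw window, 25 bases before the start, and on both strands of the Pde6h window, at 63 and 47 bases before it, where 8.2% of 32851 RefSeq mouse promoter windows of the same length hold it. TAATCC was present once in the Gnat2 window, 19 bases before the start, where 6.25% of the windows hold it. Of the other members with an entry, Cnga3 held TAAGCC in 1 of its 2 windows, 92 bases before the start. Neither core was found in the Opn1mw or Arr3 windows. The ER stress response element, CCAAT and CCACG with 9 bases of any kind between them, through which ATF6 acts with NF-Y, is held by 0.113% of all windows and was in none of the windows of the 6 members, and TGACGTGG, a site bound by ATF6 and XBP1, is held by 0.563% and was in none of them. These are matches of letters in a short window and were not tested as sites.

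The wider cone pathway was described through lists chosen for this tissue with earlier results of these data known. The list counts beside the shares of all genes are thus a description and not a test. Of 22 partners that cones share with rods or that regulate recovery, such as the kinase Grk1 and the guanylate cyclase Gucy2e, 0 passed after tunicamycin, with a median change of −0.02 beside 0.01 over all genes. The most abundant were Pdc, phosducin, at 0.09 ± 0.15 and Unc119 at 0.05 ± 0.07. Of 9 rod counterparts 0 passed, with Gnat1, the rod transducin alpha subunit, at −0.11 ± 0.10 (adjusted p = 0.545) and Pde6g, the rod inhibitory subunit, at 0.01 ± 0.13 (adjusted p = 0.972). Of 15 genes of cone identity and transcription 0 passed either. Nrl, the rod-determining factor, was at −0.11 ± 0.09, Crx at −0.02 ± 0.05, and Thrb, which encodes the thyroid hormone receptor that specifies medium-wavelength cones, at 0.00 ± 0.05. Of 14 outer segment and synapse genes 0 passed, with Prph2 at −0.06 ± 0.08 and Rom1 at −0.10 ± 0.09.

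Of 12 genes of chromophore supply 5 were lower after tunicamycin and 0 higher, where 2.81% of all tested genes were lower and 5.89% higher. Rpe65, the isomerase that regenerates 11-cis retinal in the pigment epithelium, measured 0.4, 2.63, 1.72, 0.96 and 1.7 FPKM in the tunicamycin libraries, against 11.39, 14.41, 6.9, 3.87 and 3.7 FPKM in vehicle set 2, and all tunicamycin values were lower (−1.78 ± 0.40, adjusted p = 0.00749). Rgr, Stra6, Rdh5 and Lrat were also lower, with changes of −1.73, −1.09, −1.01 and −0.61 (adjusted p = 0.0151, 0.00146, 0.0394 and 0.0212). Lrat lay near the floor, with a mean of 0.678 FPKM over all libraries. Rpe65, Rgr, Rdh5 and Lrat are also on the list of pigment epithelium markers, and the summed level of that list was 13.84 to 49.95 FPKM after tunicamycin and 107.4 to 231.8 FPKM in vehicle set 2, with all 5 tested markers lower. How much pigment epithelium was carried over with each retina was not tested. Rbp3, the retinoid carrier made by photoreceptors, and Rlbp1, which is made in Müller glia and pigment epithelium, did not pass (−0.14 ± 0.08 and −0.14 ± 0.20).

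Folding-stress genes rose in the same tunicamycin libraries, with 15 of 16 higher and 0 lower, where 5.89% of all tested genes were higher and 2.81% lower. Derl3, of ER-associated degradation, changed by 3.59 ± 0.35, Sdf2l1 by 2.75 ± 0.31, Hspa5 by 2.10 ± 0.28, Trib3 by 1.92 ± 0.30, Creld2 by 1.82 ± 0.25 and Manf by 1.63 ± 0.27. The abundant chaperone genes Hsp90b1 and Calr changed by 1.29 ± 0.22 and 0.95 ± 0.20. Atf6 was at 37.65, 23.18, 17.33, 23.81 and 20.98 FPKM after tunicamycin, against 15.43, 16.49, 15.18, 17.5 and 16.92 FPKM in vehicle set 2, and rose by 0.52 ± 0.11 (adjusted p = 0.00511). Library 1 was the highest and library 3 the lowest of the tunicamycin libraries for both Atf6 and Hspa5, and for Atf6 library 3 lay inside the vehicle range. Of 13 opsin folding and trafficking genes 2 rose, against the same 5.89% of all genes, Sec61b of the translocon by 0.63 ± 0.12 and the lectin chaperone Canx by 0.55 ± 0.13, whereas the abundant Reep6 and Tulp1 did not pass (0.04 ± 0.10 and −0.05 ± 0.07). After AA147 and after Ceapin-A7, 0 genes of these 7 lists passed. Hspa5 measured 113.8 to 162.6 FPKM after AA147, against 135.3 to 186.9 FPKM in vehicle set 1, and 105.8 to 131.6 FPKM after Ceapin-A7 against 106.4 to 161.9 FPKM in vehicle set 2.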

How the data were processed

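Retinal RNA from 25 mouse retina libraries was measured by stranded mRNA sequencing on the DNBSEQ platform after removal of cornea and lens, per the labels' protocols. The authors deposited FPKM values with 2 decimals, in 1 table per group, and DESeq2 1.4.5, HISAT2 2.0.4, RSEM 1.2.18 and the build GRCm39 appear in the submitters' processing notes without their roles. Without counts, no count model could be fitted. Library depth was estimated from the steps of low FPKM values in 1771 single-transcript genes, assuming that 250 bases start no fragment. Low values lay on average 0.152 to 0.196 of a fragment from a whole number, so whole reads were not recovered.

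The 13117 genes that reached 1 FPKM in 5 or more libraries were tested as log2(FPKM + 1) in a single model of all 5 groups with limma 3.58.1 (R 4.3.3) and a trend in the variance prior, two-sided. Each SE thus pools the spread over groups, which understates that of a group that is variable for the gene, such as tunicamycin for Arr3. For Pde6c the more variable group was vehicle set 2, with a coefficient of variation of 18.5% against 8.67% in tunicamycin. Steps were tested on simulated data. Tables and figures used matplotlib 3.10.9, pandas 2.3.3, numpy 2.4.6 and Python 3.11.15.

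The members and lists were chosen with earlier results of these data known. Every member is named. From each list, up to 6 called genes by size of change and the 2 with the highest mean FPKM are named after tunicamycin, and a few others (Grk1, Gucy2e, Thrb, Atf6, Calu) were named after their values were seen. Lists called between the vehicle sets are not walked through. Cell type markers were summed as FPKM per library, and 1 gene of the rod lists is not reported here. Sequences are from the RefSeq promoter table of GRCm38.p6, whose coordinates do not belong to the build of the files.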

Additional observations from a re-analysis of the deposited data

Results flagged for a closer look

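Gnb3 in tunicamycin library 3 measured 365.7 FPKM, where the other tunicamycin libraries lay at 210.6 to 253.9 FPKM. Its gap to the nearest library was 0.721 of the group's range, above the critical value of 0.71 for 5 samples. It was the only 1 of 50 groups of 5 values (10 genes in 5 groups) to do so, and chance alone marks about 1 in 20 such groups.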

How the results depend on the processing

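Each result was recomputed with a pseudocount of 0.1, no filter on low values, median-ratio or quantile scaling, the same table family only, the compared groups only, a replicate block, the Y-linked level as a covariate, library weights, no trend in the variance prior, the vehicle set of the other family, without libraries 4 and 5 of vehicle set 2, and without each library in turn. Leaving out 3 libraries together (tunicamycin 1, vehicle set 2 libraries 4 and 5) was chosen after seeing the data. Of 1210 single-gene values, 1126 kept their direction and their side of the threshold, 22 were no longer past it, 6 passed it newly and 56 changed sign. Most values were never called, and only a called result could lose its call. Pde6c after tunicamycin lost it in 2 of 23 fits. Between the vehicle sets Gnat2 lost it in 2, Pde6c in 7, Cngb3 in 11 and Cnga3 in 0 of 21 fits. The same-family fit could not be made for comparisons across families. The cause of each change was not tested.

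The count of members called higher after tunicamycin, 1, was 0 with the compared groups only and 0 against vehicle set 1. The count called lower, 0, was 3 against vehicle set 1 (Gnat2, Gnb3 and Cnga3) and 0 to 1 when a library was left out, the 1 being Gnb3 without tunicamycin library 3. Pde6c remained called in all 10 fits that left out a library, at 0.34 to 0.50. Against the other vehicle set, AA147 had 2 members called higher (Gnat2, Cnga3), and Ceapin-A7 had 2 higher (Opn1sw, Gngt2) and 1 lower (Cnga3). Between the vehicle sets the 4 called lower became 2 with the compared groups only, 2 to 4 when a library was left out (2 without vehicle set 2 library 4 or 5, or without vehicle set 1 library 2), and 1 without libraries 4 and 5 of vehicle set 2. It was also 1 without the 3 libraries, where 2 were called higher.

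These changes turned sign, and none of them was called in the comparison as reported. After tunicamycin they were Opn1sw −0.086, Opn1mw −0.036, Gnat2 −0.13, Gngt2 −0.11 and Pde6h −0.14 without libraries 4 and 5 of vehicle set 2, Gnat2 −0.085 without the 3 libraries, and Gnat2 −0.27, Pde6h −0.19, Cnga3 −0.53, Cngb3 −0.062 and Arr3 −0.057 against vehicle set 1. After AA147 they were Opn1sw 0.000747, Gnb3 −0.071 and Cnga3 0.0045 with library weights, Gnb3 −0.012 with the Y-linked covariate, and Gnat2 0.28, Pde6c 0.13, Pde6h 0.086, Cnga3 0.61 and Cngb3 0.089 against vehicle set 2. After Ceapin-A7 they were Gnat2 −0.0019, Pde6h −0.0084, Cnga3 −0.57 and Arr3 −0.016 against vehicle set 1. Between the vehicle sets they were Opn1sw −0.10, Opn1mw −0.11 and Gngt2 −0.023 with the Y-linked covariate and Opn1mw −0.022 and Gngt2 −0.014 with median-ratio scaling.

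Leaving out a library gave ranges that crossed 0 after tunicamycin for Opn1sw (−0.0088 to 0.23), Opn1mw (−0.014 to 0.14), Gnat2 (−0.040 to 0.11), Gngt2 (−0.013 to 0.21) and Pde6h (−0.046 to 0.23). They did so after AA147 for Opn1sw (−0.059 to 0.028), Opn1mw (−0.091 to 0.0081), Gnb3 (−0.060 to 0.11), Cnga3 (−0.063 to 0.0028) and Arr3 (−0.034 to 0.15), and between the vehicle sets for Opn1sw (−0.020 to 0.18), Opn1mw (−0.039 to 0.054) and Gngt2 (−0.061 to 0.10).

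Over all genes, the 1141 called after tunicamycin became 389 in the same family, 74 with the compared groups only, 473 with the Y-linked covariate, 607 without tunicamycin library 1, 1983 without tunicamycin library 3 and 7381 against vehicle set 1. The split of 773 higher and 368 lower became 562 and 553 with median-ratio and 567 and 572 with quantile scaling. Libraries of the same replicate number correlated at −0.434 to 0.47, so the numbers did not pair the samples. With the replicate block Pde6c after tunicamycin was 0.43 (adjusted p = 0.00799), the counts of members called were 1 and 4 as before, and 1115 genes were called after tunicamycin. At 5 libraries a group, the interval of a member's change was as wide as −0.65 to 0.01 for Gnb3 after tunicamycin.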
